A study of Mus musculus with 16 samples.

Results

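The genes described here are the Wnt ligands, their Frizzled and Lrp receptors, and the proteins outside the cell that block or enhance Wnt signals, in the gonadal white fat of fed and fasted mice. They were the 46 genes of 22180 measured whose symbol is a numbered Wnt, Fzd or Dkk name or is 1 of 12 others (Sfrp1, Sfrp2, Sfrp4, Frzb, Wif1, Lrp5, Lrp6, Notum, Lgr4, Rspo1, Rspo3 and Trabd2b). By role these were 19 ligands, 12 receptors, 11 inhibitors, 3 genes of the R-spondin arm, and Fzd10os, a transcript that the symbol places opposite Fzd10 and that codes for no receptor. Gonadal white adipose tissue was taken in the morning from male C57BL/6 mice aged 3 to 4 months. The fed group of 8 samples had free access to food, and the fasted group of 8 samples had none for 16 hours. RNA came from whole tissue. Whether the 8 samples of a group were 8 different mice is not stated in the labels, so p-values here reflect only the variation among the arrays, which may be technical in part.

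Wnt proteins are lipid-modified signals that act over short distances. In the canonical branch, a Wnt bound to a Frizzled and to Lrp5 or Lrp6 stops the destruction of beta-catenin, which then acts with TCF/LEF factors on target genes such as Axin2. Other branches act on cell polarity and calcium. In fat, canonical Wnt signals are known to hold precursor cells back from becoming adipocytes, and secreted inhibitors such as the Sfrp proteins release that hold.

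Values are RMA signals on a log2 scale, so a difference of 1 is a doubling, and each is relative to the rest of its array. The 16 arrays had medians between 4.06 and 4.26 over the named probe sets and correlated with each other at 0.966 to 0.993. The defining adipocyte transcripts Adipoq and Fabp4 stood at 10.84 and 12.52 in fed and 10.72 and 12.58 in fasted samples, so the label of the tissue held in both groups. Epididymal epithelium, the closest neighbouring tissue, had a mean over 12 markers of 2.36 to 2.76, near the low end of the scale. The highest means of each group were in fed replicate 2 and fasted replicate 7, at 2.76 and 2.70. Single markers went higher, as Adam7 reached 6.16 in a fed and 4.69 in a fasted array, against group medians of 2.59 and 2.54. Spink8 reached 3.92 in a fed array. Ciliated epithelium markers were high in fed replicate 2 and fasted replicate 7, at 5.33 and 4.80 as a mean of 12 markers, against a median of 2.77 in fed and 2.83 in fasted arrays. Fed replicate 6 and fasted replicate 4 came next, at 3.50 and 3.40, and the alternative described below kept both. A mean of 14 hepatocyte transcripts ranged from 6.40 to 9.28 without a clear break, with the highest means in fed replicates 3, 2 and 4 at 9.28, 9.14 and 8.95. An alternative that leaves out fed replicates 2 and 3 and fasted replicate 7 together is given where it changed a call of the 46 genes, as it did for Wnt5a, Lrp6, Fzd6 and Wnt9b.

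Most of the 46 genes were not called between fed and fasted samples, and the largest changes were falls. Trabd2b, a protease that cleaves Wnt proteins, fell 4.57-fold, and the receptor Fzd4 fell 2.06-fold. The ligands Wnt8b, which was dim, and Wnt11 rose 1.58-fold and 1.40-fold. The inhibitor Sfrp2, not called in its dimmer probe set, and the receptor Fzd5 fell 1.48-fold and 1.41-fold. Wnt5a fell by 0.25 and Lrp6 rose by 0.17 on the log2 scale, both close to the threshold. At a limma adjusted p under 0.05 over all genes, 3 of the 46 were higher and 5 were lower in fasted samples, which is 17.4% against a background of 19.2% of all genes called (8.49% higher and 10.7% lower). The share called was thus near that of the array as a whole, and the median log2 fold change was -0.0017 against -0.0042 over all genes. The 46 genes were dimmer than the array as a whole, with a median level of 3.64 against 4.18. Among genes that reached a linear value of 20 in at least 8 arrays, 9 of 19 were called, against 4553 of 10832 genes. In 3 of the 46 the fed and fasted arrays did not overlap at all, with fed above for Trabd2b and Fzd4 and fasted above for Wnt8b. The background was 6.48% of all genes (3.45% with fed above and 3.03% with fasted above). Where array medians were subtracted first, 6 of the 46 were higher and 4 lower, and over all genes the share of calls that were higher went from 44.3% to 54.7%. Without fed replicate 2 alone, 5 of the 46 were higher and 5 lower.

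**Figure D1:**
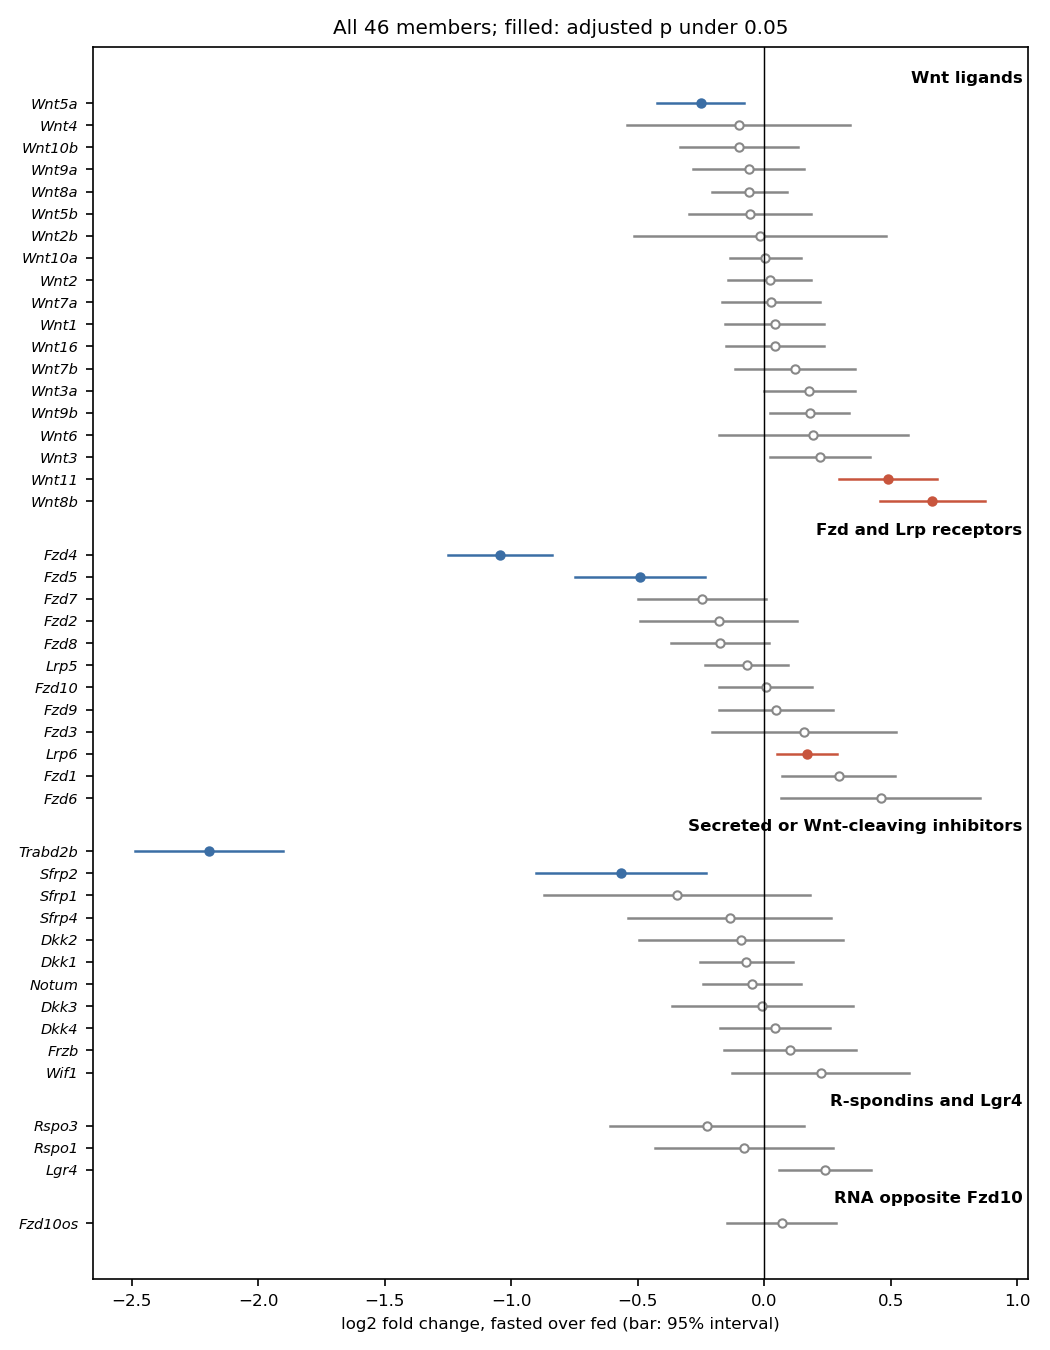
Log2 fold change of each of the 46 genes, fasted over fed, with its 95% interval from limma, grouped by role and sorted within a role. Filled points passed an adjusted p of 0.05 over all genes (red higher, blue lower in fasted samples) and open grey points did not. Trabd2b at -2.19 and Fzd4 at -1.04 lie farthest from 0.

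Of the 46 genes, 28 matched a RefSeq promoter entry of build GRCm38.p6. The 250 bases before the annotated start are shown for the called genes with an entry, with those that fell first, and for Axin2, which fell beside them. The coordinates are chr7:89404116-89404365, plus strand, for Fzd4, chr1:64737751-64738000, minus strand, for Fzd5, chr3:83766071-83766320, plus strand, for Sfrp2, chr11:108920099-108920348, plus strand, for Axin2, chr7:98834862-98835111, plus strand, for the upstream start of Wnt11, and chr19:44493222-44493471, plus strand, for Wnt8b. Each is written 5′ to 3′ on the strand of its gene, and capitals mark the TCF/LEF core CTTTGAT, searched on both strands.
Fzd4: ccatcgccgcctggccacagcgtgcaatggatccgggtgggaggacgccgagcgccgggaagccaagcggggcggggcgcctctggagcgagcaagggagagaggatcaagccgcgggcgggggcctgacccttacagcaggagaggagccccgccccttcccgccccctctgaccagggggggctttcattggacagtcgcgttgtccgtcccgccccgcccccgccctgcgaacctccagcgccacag
Fzd5: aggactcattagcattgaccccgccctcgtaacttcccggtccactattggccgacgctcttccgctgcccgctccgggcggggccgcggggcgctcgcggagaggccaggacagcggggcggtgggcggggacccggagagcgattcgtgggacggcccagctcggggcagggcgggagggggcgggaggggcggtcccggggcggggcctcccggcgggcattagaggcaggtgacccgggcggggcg
Sfrp2: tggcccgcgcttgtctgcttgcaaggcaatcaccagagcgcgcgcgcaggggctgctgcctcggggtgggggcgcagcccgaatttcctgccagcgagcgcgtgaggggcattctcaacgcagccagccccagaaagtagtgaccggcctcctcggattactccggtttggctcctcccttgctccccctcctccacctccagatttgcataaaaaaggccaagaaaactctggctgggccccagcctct
Axin2: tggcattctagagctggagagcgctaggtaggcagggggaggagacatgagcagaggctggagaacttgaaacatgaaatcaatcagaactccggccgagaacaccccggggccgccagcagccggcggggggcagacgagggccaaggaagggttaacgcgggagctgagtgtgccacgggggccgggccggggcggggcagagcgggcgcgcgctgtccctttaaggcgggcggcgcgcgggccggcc
Wnt11: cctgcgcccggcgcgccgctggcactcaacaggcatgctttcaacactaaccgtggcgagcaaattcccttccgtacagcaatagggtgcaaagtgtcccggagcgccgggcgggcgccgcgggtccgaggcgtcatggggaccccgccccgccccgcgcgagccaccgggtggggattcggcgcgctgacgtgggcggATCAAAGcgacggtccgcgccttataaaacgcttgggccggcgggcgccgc
Wnt8b: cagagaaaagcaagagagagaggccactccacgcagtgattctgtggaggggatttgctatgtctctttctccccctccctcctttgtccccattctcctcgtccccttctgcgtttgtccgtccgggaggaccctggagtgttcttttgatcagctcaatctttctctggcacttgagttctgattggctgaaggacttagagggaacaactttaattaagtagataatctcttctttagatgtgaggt

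The core was found in 3.21% of 32851 promoter entries of this length and in 2 of the 31 entries of the 28 genes, those of Wnt11 and Wnt5b. In Wnt11 it stood on the reverse strand with its last base 45 bases before the start, and a second annotated start of Wnt11 held none. These windows of Fzd4, Fzd5, Sfrp2, Axin2 and Wnt8b do not hold the letters of the core. Other forms of the site, and bases outside the windows, were not searched. G and C made up 72.8% of the Fzd4 window, 76.4% of the Fzd5 window, 69.2% of the Axin2 window and 70.8% of the upstream Wnt11 window, against a median of 52.4% over all entries. The Wnt8b window stood below that median, at 48.4%.

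Among the ligands, 2 of 19 were higher, 1 was lower and 16 were not called in fasted samples. Wnt11, a ligand best known for the polarity and calcium branches, had a lowest, median and highest fed value of 4.49, 4.67 and 4.96. Its fasted values were 4.93, 5.17 and 5.60. The groups overlapped slightly, with 7 of the 8 fasted arrays above every fed array. The difference was 0.49 on the log2 scale (SE 0.093, n = 8 per group, limma adjusted p = 7.42e-04).

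Wnt8b, a ligand of the canonical branch known mainly from the developing brain, was dim throughout. Its fed values had a lowest, median and highest of 2.57, 3.02 and 3.14, and its fasted values 3.16, 3.66 and 3.82. All 8 fasted arrays lay above all 8 fed arrays, with fasted replicate 1 closest to the fed group. The difference was 0.66 (SE 0.099, limma adjusted p = 7.15e-05). Wnt8b did not reach a linear value of 20 in 8 arrays and so was absent from the test restricted to brighter genes.

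Wnt5a, a non-canonical ligand that fat macrophages and stromal cells are known to release, had fed values of 5.36, 5.51 and 5.82 as lowest, median and highest. Its fasted values were 5.11, 5.25 and 5.55. The groups overlapped, with 5 of 8 fasted arrays below every fed array. The difference of -0.25 (SE 0.082, limma adjusted p = 0.0375) lost its call without any 1 of fed replicates 2, 3, 5, 6 and 7 or fasted replicates 1, 3, 6, 7 and 8, with adjusted p = 0.0512 to 0.0804. It also lost it under subtraction of array medians (adjusted p = 0.122) and without fed replicates 2 and 3 and fasted replicate 7 together (0.137).

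The other 16 ligands had log2 fold changes between -0.10 (Wnt4) and 0.22 (Wnt3). Wnt9b, at 0.18 (SE 0.074, limma adjusted p = 0.111), passed the threshold under 4 of 29 alternatives: without fed replicate 2, without fed replicates 2 and 3 and fasted replicate 7 together, with quantile normalization repeated and by the exact rank sum test. They included Wnt10b, the ligand most studied as a brake on fat cell formation, with a mean of 3.03 ± 0.24 in fed and 2.93 ± 0.22 in fasted samples (SD, n = 8, limma adjusted p = 0.633). The 95% interval of its difference ran from -0.33 to 0.13. Of the 19 ligands 4 reached a linear value of 20 in at least 8 arrays, and these were Wnt2b, Wnt5a, Wnt11 and Wnt9a. For the other 15, signal near the low end of the scale limits how small a change could be seen. Several ligand genes lie side by side in the genome, and the neighbours Wnt6 and Wnt10a, Wnt3 and Wnt9b, Wnt1 and Wnt10b, and Wnt3a and Wnt9a were all among the uncalled ligands.

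Of the 12 receptors 1 was higher, 2 were lower and 9 were not called. Fzd4, which binds Wnt proteins and also Norrin and is known from blood vessels and fat, showed the clearest change. Its fed values were 10.59, 10.78 and 10.95 as lowest, median and highest, and its fasted values 9.45, 9.63 and 10.13. Every fasted array lay below every fed array, and the difference was -1.04 (SE 0.097, limma adjusted p = 3.29e-07). In a sample of whole tissue, fewer cells of a type and less RNA per cell cannot be told apart. The mean of 8 adipocyte markers lay between 9.74 and 9.94 in fed and between 9.21 and 9.60 in fasted arrays. Of these markers 1 was higher (Cidec at 0.25) and 2 were lower (Lep at -1.93 and Plin1 at -0.84). The other 5 were not called, with differences from -0.46 (Cidea) to 0.063 (Fabp4). Of 8 endothelial markers 3 were higher and none lower, with list means of 8.61 to 9.09 in fed and 8.91 to 9.20 in fasted arrays. Of 7 mural cell markers, which mark the cells around vessels, 3 were lower (Cspg4 at -1.08, Rgs5 at -0.77 and Notch3 at -0.62) and Acta2 was higher, with list means of 7.47 to 8.15 in fed and 7.09 to 7.95 in fasted arrays. The part of these cell types in the fall of Fzd4 was not tested.

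Fzd5, a Frizzled of the canonical branch, had fed values of 4.86, 5.13 and 5.51 and fasted values of 4.21, 4.68 and 5.05 as lowest, median and highest. The ranges overlapped, with 6 of 8 fasted arrays below every fed array, and the difference was -0.49 (SE 0.12, limma adjusted p = 0.00687). Lrp6, a co-receptor that Wnt and Frizzled need for the canonical signal, moved by the smallest step among the called genes. Its fed values were 9.32, 9.39 and 9.47 and its fasted values 9.45, 9.55 and 9.74, with 7 of 8 fasted arrays above every fed array. The difference of 0.17 (SE 0.056, limma adjusted p = 0.0394) was not called in its other probe set, at 0.069 (SE 0.11, adjusted p = 0.763). It also lost its call without any 1 of fed replicates 1, 3, 5, 6 and 7 or fasted replicates 2, 3, 4, 6 and 7 (adjusted p = 0.0527 to 0.0746) and without fed replicates 2 and 3 and fasted replicate 7 together (0.131). Lrp5, the related co-receptor, had means of 8.27 ± 0.060 in fed and 8.20 ± 0.20 in fasted samples (SD, n = 8, limma adjusted p = 0.648).

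Fzd6, a Frizzled of the polarity branch, was the uncalled gene with the largest difference, at 0.46 (SE 0.19, limma adjusted p = 0.102). Its fed values were 5.52, 5.96 and 7.21 as lowest, median and highest, and its fasted values 6.22, 6.50 and 6.91. The highest fed value was that of fed replicate 2, which lay above all 8 fasted arrays, while the other 7 fed arrays lay below all of them. Without that array the difference was 0.63 (adjusted p = 0.00128), and without fed replicates 2 and 3 and fasted replicate 7 together it was 0.52 (adjusted p = 0.00548). Fed replicate 2 and fasted replicate 7 were the arrays with high ciliated epithelium markers, and Fzd6 was at its highest in each group in these arrays. Fed replicate 6 and fasted replicate 4, next for these markers, were also next for Fzd6, at 6.21 and 6.70. The part of these cells in its values was not tested. Fzd1 stood at 6.51 ± 0.21 in fed and 6.81 ± 0.23 in fasted samples (SD, n = 8), short of the threshold at an adjusted p = 0.0617. It passed under 9 of 29 alternatives, which were both filters on dim genes, subtraction of array medians, cyclic loess, repeated quantile normalization, trend and robust settings, and the omission of fed replicate 6, fasted replicate 6 or fasted replicate 7. Fzd8, at -0.18, passed without fed replicate 2, and Fzd7, at -0.25, without fasted replicate 2. The remaining 6 uncalled Frizzled genes had log2 fold changes from -0.25 (Fzd7) to 0.16 (Fzd3). The transcript Fzd10os and Fzd10 itself were both dim, with means of 2.74 and 2.07 over all arrays and differences of 0.069 and 0.0059. Whether the probes of this pair tell the strands apart is not given in the sources used here.

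**Figure D2:**
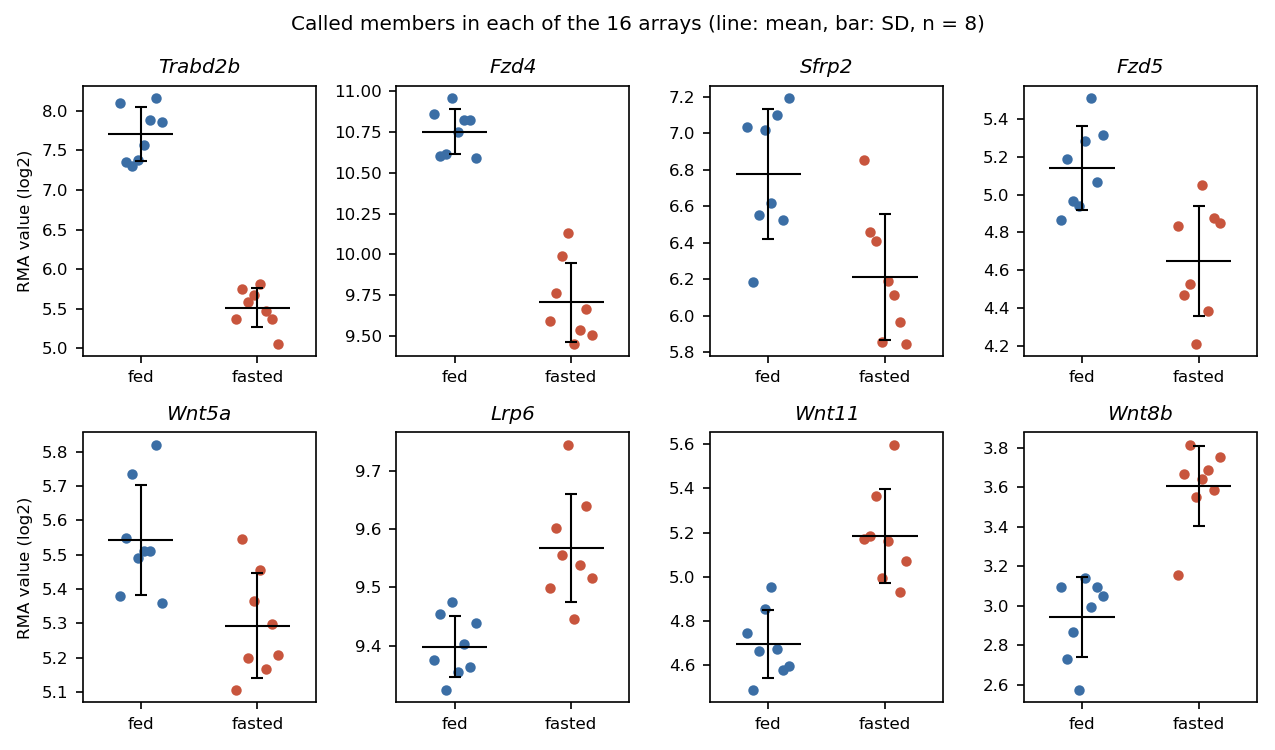
RMA value on a log2 scale in each array for the 8 called genes, ordered from the largest fall to the largest rise, with fed arrays in blue and fasted arrays in red. Lines are means and bars SDs of 8 arrays, and each panel has its own axis, which does not start at 0. The groups do not overlap for Trabd2b, Fzd4 and Wnt8b.

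Of the 11 inhibitors 2 were lower, none was higher and 9 were not called. Trabd2b, also known as Tiki2, is a protease of the cell surface that clips the amino end of Wnt proteins and so inactivates them. Its fed values were 7.31, 7.72 and 8.16 as lowest, median and highest, and its fasted values 5.06, 5.53 and 5.82. A gap of more than 1 log2 unit lay between the lowest fed and the highest fasted array. The difference was -2.19 (SE 0.14, limma adjusted p = 3.34e-09), with a 95% interval from -2.48 to -1.90. It stayed between -2.30 and -2.13 under all 29 alternatives. The adipocyte marker values given beside Fzd4 also stand beside this fall, and their part was not tested. Notum, an enzyme that removes the lipid from Wnt proteins and thus also acts on the ligand itself, was dim and uncalled at 2.66 ± 0.19 in fed and 2.62 ± 0.18 in fasted samples (SD, n = 8, limma adjusted p = 0.809).

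Sfrp2, a secreted decoy with a Frizzled-like domain that binds Wnt proteins, had fed values of 6.19, 6.82 and 7.19 as lowest, median and highest. Its fasted values were 5.85, 6.15 and 6.85. The groups overlapped, and 4 of 8 fasted arrays lay below every fed array. The difference was -0.57 (SE 0.16, limma adjusted p = 0.0170), and its dimmer probe set gave -0.17 (SE 0.13, adjusted p = 0.472). In the fibroblast and progenitor list 2 of 10 markers were lower and none was higher (Cd34 and Lum), with list means of 8.41 to 8.59 in fed and 8.23 to 8.73 in fasted arrays. Their part in the fall of Sfrp2 was not tested.

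Sfrp1, a decoy of the same family that is known to favour fat cell formation, ranged widely within both groups. Its fed values were 5.95, 6.31 and 7.62 and its fasted values 5.49, 6.17 and 7.05 as lowest, median and highest. Both highest values came from the arrays with high ciliated epithelium markers, fed replicate 2 and fasted replicate 7. Fed replicate 6 and fasted replicate 4, next for these markers, were also next for Sfrp1, at 7.14 and 6.49. The difference of -0.34 (SE 0.25, limma adjusted p = 0.421) was within the spread of the arrays. It was -0.18 without fed replicate 2 (adjusted p = 0.662) and -0.48 without fasted replicate 7. These were the ends of its range over the 29 alternatives, and none of them called it. The other 8 uncalled inhibitors ranged from -0.14 (Sfrp4) to 0.22 (Wif1). None of the Dickkopf genes was called. Dkk1, whose product blocks Lrp5 and Lrp6, stood at 3.56 ± 0.18 in fed and 3.49 ± 0.16 in fasted samples (SD, n = 8). Dkk3, a divergent member of the family not known as a blocker of these receptors, stood at 5.11 ± 0.31 in fed and 5.11 ± 0.43 in fasted samples (SD, n = 8).

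None of the 3 genes of the R-spondin arm was called. R-spondins are secreted proteins that bind Lgr4 and its relatives and so keep Frizzled receptors on the cell surface. Lgr4 came closest, with fed values of 7.44, 7.65 and 7.87 and fasted values of 7.58, 7.88 and 8.21 as lowest, median and highest. Its difference was 0.24 (SE 0.086, limma adjusted p = 0.0590), and 7 of 8 fasted arrays lay above the fed median. It passed the threshold under 9 of 29 alternatives, among them the omission of fed replicate 8 (adjusted p = 0.0367) or fasted replicate 1 (0.0186). Rspo3 had means of 3.84 ± 0.43 and 3.62 ± 0.37 in fed and fasted samples (SD, n = 8, limma adjusted p = 0.485).

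Rspo1 was not called (8.46 ± 0.16 in fed and 8.38 ± 0.49 in fasted samples, SD, n = 8, limma adjusted p = 0.824), but its fasted arrays spread widely. Its fasted values ran from 7.72 to 9.04 with a median of 8.35, and its fed values from 8.26 to 8.72 with a median of 8.45, so 3 fasted arrays lay above and 3 below every fed array. Wnt2b, a canonical ligand, showed a like spread, from 6.26 to 8.01 in fasted arrays (median 6.89) and from 6.56 to 7.56 in fed arrays (median 7.12). The mean of 9 markers of mesothelium, the cell layer that covers the fat pad, also ranged more widely in fasted arrays, from 6.45 to 7.80, than in fed arrays, from 7.11 to 7.64, and 1 of the 9 markers was called (Krt19, lower). Within the fasted arrays, the Pearson correlation of Rspo1 with this mean was 0.955 (n = 8, exact permutation p = 7.94e-04). The Spearman correlation was 0.929 (n = 8, p = 0.00223 by exact permutation). Leaving out fasted replicates 1 and 6, the arrays with the most extreme mesothelial means, gave r = 0.908. For Wnt2b the Pearson correlation was 0.911 (n = 8, exact permutation p = 0.00283), the Spearman correlation was also 0.929, and r was 0.837 without the same arrays. In fed arrays r was 0.620 for Rspo1 and 0.660 for Wnt2b (n = 8, exact permutation p = 0.0989 and 0.0721), with rho of 0.643 and 0.595. Leaving out fed replicates 5 and 6 lowered r to 0.328 and 0.214, so the fed relations rest on those arrays. All 46 genes were set against the mesothelial mean in both groups, and none of the 92 relations passed a Benjamini-Hochberg adjustment (exact permutation adjusted p = 0.0730 for Rspo1 and 0.0867 for Wnt2b in fasted arrays by Pearson's r, and 0.103 for both by rho). Between these by p-value was Lrp5 in fed arrays, which ran the opposite way at r = -0.874 (n = 8, exact permutation p = 0.00166, adjusted p = 0.0764) and rho = -0.905, with r = -0.887 without fed replicates 5 and 6. In fasted arrays r for Lrp5 was -0.091. No other marker list was correlated with the 46 genes, and the adjustment does not cover the choice of this list. Whether the relations are particular to mesothelium was not tested.

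**Figure D3:**
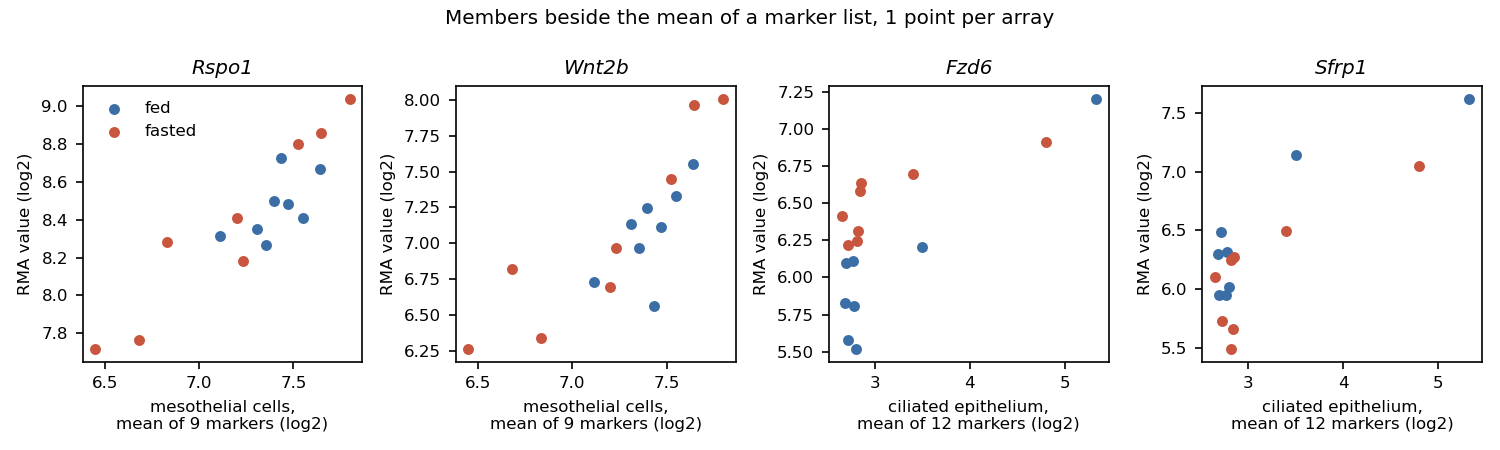
Level of Rspo1 and Wnt2b against the mean of 9 mesothelial markers, and of Fzd6 and Sfrp1 against the mean of 12 ciliated epithelium markers, all as log2 RMA values with 1 point per array (fed blue, fasted red). Among the fasted arrays, Rspo1 and Wnt2b are highest in those with the highest mesothelial means. The relation is weaker in fed arrays, and none passed adjustment. Fzd6 and Sfrp1 are at their highest in fed replicate 2 and fasted replicate 7, the arrays to the right with ciliated means of 5.33 and 4.80.

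The rest of the pathway was looked at through lists of genes for secretion, other receptors, other secreted modulators, transducers inside the cell, target genes and the polarity and calcium branch. Of 80 listed genes outside the 46, 76 were measured, and 10 were higher and 12 lower in fasted samples (28.9% called against a background of 19.2%). With array medians subtracted the counts were 10 and 11. The listed genes were brighter than the array as a whole, with a median level of 5.92 against 4.18 over all genes. Among genes that reached a linear value of 20 in at least 8 arrays, 26 of 54 listed genes were called, against 4553 of 10832 genes. The lists were drawn up with earlier results of these data known, so the share is not independent evidence.

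The machinery that prepares Wnt proteins for release was called in both directions. Porcn, the acyltransferase that attaches the lipid to Wnt proteins, had fed values of 6.14, 6.38 and 6.63 and fasted values of 6.67, 7.08 and 7.30 as lowest, median and highest. The groups did not overlap, and the rise was 0.69 (SE 0.092, limma adjusted p = 2.05e-05). Wls, the carrier that takes the lipid-bearing ligand to the cell surface, had fed values of 8.08, 8.26 and 8.46 and fasted values of 7.67, 7.93 and 8.10. The groups met at their edges, with 5 of 8 fasted arrays below every fed array, and the fall was 1.25-fold (log2 fold change -0.32, SE 0.077, limma adjusted p = 0.00531).

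Of 13 other receptors and co-receptors 1 rose and 1 fell. Gpc4, a glypican that holds Wnt proteins at the cell surface, fell 2.21-fold without overlap, from 7.45 ± 0.13 to 6.30 ± 0.35 (SD, n = 8, limma adjusted p = 2.18e-06). Ryk, a receptor with a Wnt-binding domain, rose by 0.24 (SE 0.076, limma adjusted p = 0.0309). That call was lost without any 1 of fed replicates 3, 4 and 6 or fasted replicates 1, 2, 5 and 8 (adjusted p = 0.0517 to 0.0624). Among 10 other secreted modulators Apcdd1, an inhibitor at the membrane that is itself a Wnt target, was the 1 called gene. It fell 1.39-fold, from 9.58 ± 0.13 to 9.11 ± 0.32 (SD, n = 8, limma adjusted p = 0.00598). Sfrp5, a decoy described as an adipokine, stood at -0.40 with a wide error (SE 0.53, adjusted p = 0.706).

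Of 24 transducers 5 rose and 4 fell, while beta-catenin (Ctnnb1) itself had a difference of -0.19 that missed the threshold (SE 0.066, limma adjusted p = 0.0545). Tcf7l2, the TCF factor best known for its link to diabetes, rose 1.54-fold, from 6.73 ± 0.18 to 7.35 ± 0.12 (SD, n = 8, limma adjusted p = 1.50e-05). Its fed arrays reached at most 6.96 and its fasted arrays at least 7.19. Amer1, a scaffold of the beta-catenin destruction complex, fell 1.83-fold from 6.55 ± 0.28 to 5.68 ± 0.24, also without overlap (limma adjusted p = 3.29e-05). Bcl9, a co-activator of beta-catenin, fell 1.38-fold (adjusted p = 0.00231). Neither Gsk3b, the kinase that marks beta-catenin for destruction, nor Axin1 was called, at -0.017 and 0.031.

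Of 17 known target genes 4 fell and 2 rose. Axin2, the target most used as a readout of the canonical branch and a brake on it, had fed values of 6.43, 7.00 and 7.41 and fasted values of 5.40, 5.89 and 6.14 as lowest, median and highest. No fasted array reached the lowest fed array, and the fall was 2.12-fold (log2 fold change -1.08, SE 0.13, limma adjusted p = 1.02e-05). Nkd1, a target that binds Dishevelled and dampens the signal, fell 1.82-fold from 6.06 ± 0.28 to 5.20 ± 0.31 (SD, n = 8, limma adjusted p = 1.42e-04). Apcdd1, described above, and Twist1 (log2 fold change -0.59, adjusted p = 0.00583) were the others that fell. The targets did not move as 1 group, since Ccn5, a secreted matricellular protein once named for its induction by Wnt1, rose 5.47-fold (SE 0.27 on the log2 scale, adjusted p = 2.18e-06) and Myc rose by 0.48 (adjusted p = 0.00474). Lef1, Lgr5, Sp5 and Rnf43, also targets, were not called and had means of 3.32, 2.95, 2.46 and 3.32 over all arrays, low on this scale. Ccnd1 was not called at -0.20 (SE 0.18, adjusted p = 0.554). These targets respond to other signals as well, and whether Wnt proteins drove any of the differences was not tested.

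In the polarity and calcium branch 1 of 15 genes rose and 2 fell. Daam1, a formin that links Dishevelled to the actin skeleton, fell 1.84-fold without overlap, from 7.22 ± 0.13 to 6.34 ± 0.22 (SD, n = 8, limma adjusted p = 1.40e-06). Its relative Daam2 fell 1.38-fold (adjusted p = 0.0250), a call lost without fed replicate 1 or fasted replicate 6 (adjusted p = 0.0536 to 0.0540). Prickle2 rose by 0.31 (adjusted p = 0.0377), a call lost without any 1 of fed replicates 1, 3, 4, 5 and 6 or fasted replicates 1, 3, 4 and 5 (adjusted p = 0.0594 to 0.0754). The core polarity genes Vangl1 and Vangl2 were not called, at -0.19 and 0.052.

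**Figure D4:**
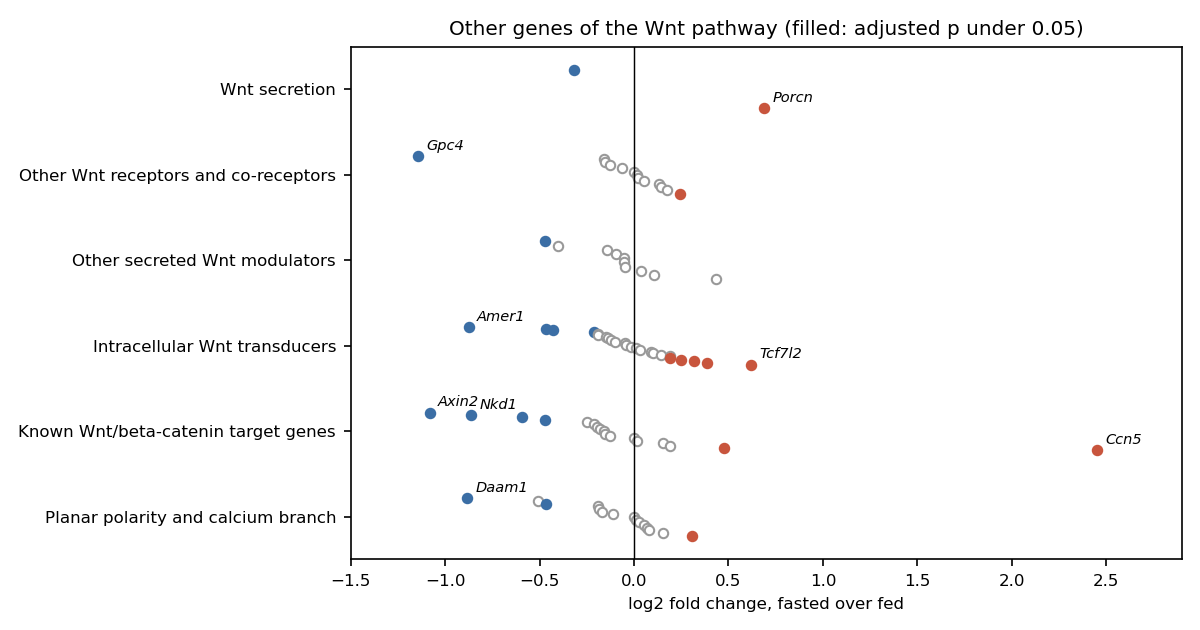
Log2 fold change, fasted over fed, of the other measured genes of the Wnt pathway, 1 point per gene, by list, with a gene of several lists drawn in each. Filled points passed an adjusted p of 0.05 over all genes (red higher, blue lower in fasted samples), and the called genes that lie farthest out are named. Gpc4, Axin2, Daam1, Amer1 and Nkd1 lie on the lower side, and Ccn5 at 2.45, Porcn and Tcf7l2 on the higher side.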

How the data were processed

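RNA of gonadal fat from 16 samples was hybridised to Affymetrix whole-transcript arrays, from 100 ng of total RNA per sample per the labels' protocols. The authors deposited log2 values, and RMA (background correction, normalization between arrays, probe set summary) is named in the submitters' processing notes. Its version is not given in the sources used here, nor is any scan batch. That the scale is log2 follows from the range of the values. Of 41345 probe sets, 23521 had 1 gene symbol in the platform annotation, and each of 22180 genes was represented by its brightest such set, averaged across all arrays.

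The test of fasting was a linear model in limma 3.58.1 under R 4.3.3 (group as the only term, eBayes defaults, two-sided), with Benjamini-Hochberg adjustment over all 22180 genes and a threshold of 0.05. Errors are moderated standard errors or SDs, and the number of arrays limits precision. The fit was tested on simulated data. Named were all called genes of the set, uncalled ones with a difference of at least 0.3, the 3 with the highest mean in each role, and up to 3 called genes of each pathway list. The genes and lists were chosen with earlier results of these data known. Any other gene was named with its values in view. The alternatives comprised 2 filters on dim genes, other normalizations and variance models, the replicate number as a block, arrays left out, other probe sets, an exact rank sum test and a threshold of 0.01. The replicate numbers were checked for pairing, and 2 of 8 same-numbered pairs had deviations correlated above 0.1, so they were not treated as pairs. Plots used Python 3.11.15 and matplotlib 3.10.9.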

Additional observations from a re-analysis of the deposited data

Results flagged for a closer look

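For the genes named by rule, 60 groups of 8 arrays were examined for an array far from the rest, and chance gives about 1 in 20 such groups. Fzd6 in fed replicate 2 stood at 7.21, with the next fed array at 6.21. Wnt8b in fasted replicate 1 was the lowest of its group at 3.16, with the next fasted array at 3.55, and it was still above every fed array.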

How the results depend on the processing

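Wnt11, Fzd4, Fzd5 and Trabd2b kept direction and call under all 29 alternatives, with log2 fold changes of 0.43 to 0.55 for Wnt11, -0.55 to -0.43 for Fzd5 and -2.30 to -2.13 for Trabd2b. Wnt8b did so under the 27 that tested it, since both filters on dim genes removed it. Sfrp2 lost its call with the lowest probe set of each gene (log2 fold change -0.17, adjusted p = 0.477) and at a threshold of 0.01. Wnt5a lost its call under 17 and Lrp6 under 16 of 29 alternatives. The count of genes of the set that were higher went from 3 to 6 with array medians subtracted, to 5 with trend and robust settings and to 5 with array weights, and ran from 2 to 5 with 1 array left out (5 without fed replicate 2). The cause was not tested. The count that were lower ran from 4 to 6 with 1 array left out and was 3 at the 0.01 threshold, where by construction fewer genes pass. At that threshold 1214 genes of the array were higher and 1552 lower, against 1883 and 2368, and 5 other pathway genes were higher, against 10. With 1 array left out the other pathway genes gave 7 to 9 higher and 11 to 13 lower, and all genes 1673 to 1910 higher and 2112 to 2445 lower. With the replicate block, 3 genes of the set were higher and 4 lower, 8 and 11 of the other pathway genes, and 1682 and 2147 of all genes. Wnt5a and Lrp6 missed the threshold with the block (adjusted p = 0.0528 and 0.0794) and Lgr4 passed it (0.0398). Pairing by number was not seen, since 2 of 8 fed arrays correlated best with the fasted array of the same number. The highest correlation, at 0.62, joined fed replicate 2 and fasted replicate 7, the arrays with high ciliated epithelium markers. A correlation over all genes cannot exclude that the numbers stand for pairs. Dim signal limits what could be seen, since 19 of the 46 genes reached a linear value of 20 in 8 arrays.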

Other observations

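Genes beside the called ones, and beside some uncalled ones, were read from the order of the RefSeq gene table, with their values seen first. Sec31b, a coat protein gene next to Wnt8b, rose by 0.55 on the log2 scale (SE 0.099, limma adjusted p = 4.87e-04), while Scd1 on the other side of Wnt8b was at 0.080 (SE 0.064, adjusted p = 0.482). Tmem135, next to Fzd4, fell by 0.84 (SE 0.077, adjusted p = 2.58e-07), and Prss23, on the other side, rose by 0.42 (SE 0.10, adjusted p = 0.00612). Neither neighbour of Trabd2b was called, with Skint11 at -0.17 and Foxd2 at -0.084. Thap12, next to Wnt11, was lower at -0.19 (SE 0.063, adjusted p = 0.0382), and Uvrag, on the other side, was not called. The neighbours of Wnt5a, Lrp6, Fzd5 and Sfrp2 were not called either. Adipor2, an adiponectin receptor next to the uncalled Wnt5b, rose by 0.70 (SE 0.082, adjusted p = 4.78e-06). Fbxl14, on the other side of Wnt5b, was lower at -0.34 (SE 0.085, adjusted p = 0.00698). Other uncalled genes of the set had called neighbours too. Among them were Prkag3 next to Wnt6, at -1.33 (limma adjusted p = 8.23e-05), and Cttnbp2nl next to Wnt2b, at 0.70 (limma adjusted p = 1.00e-04). The share of neighbours that were called was not computed.

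In both arrays with high ciliated epithelium markers, Wnt4, Wnt8a, Fzd6 and Sfrp1 lay above all other arrays of their group, and Wnt11 and Fzd8 lay below them. The share of all genes that did so was not computed. These arrays also had hepatocyte means of 9.14 and 8.62, against group medians of 7.46 and 7.89. Wnt8a was dim, at 3.26 against at most 3.00 in the other fed arrays and 3.08 against at most 3.05 in the other fasted arrays. Wnt4 stood at 4.15 in fed replicate 2, against 2.66 to 3.52 in the other fed arrays, and at 3.68 in fasted replicate 7, against 2.40 to 3.60 in the other fasted arrays.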
